A study of Medicago sativa with 24 samples.

Results

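The genes described here are 3 defence genes of the 41527 genes measured: TC175139, annotated as a thaumatin-like protein, TC176166, annotated as a peroxidase, and TC183565, annotated as a disease resistance response protein. They were chosen because they belong to the genes that the study listed as lower in 4x than in 2x hybrids with an enriched gene ontology term, and all 3 carry the defence response term. The choice therefore used these same arrays, through the contrast between the 2 ploidy levels of the hybrids and through their contrasts with the parents. The differences between these groups are given below as a description. Tests are read as results only for contrasts that the choice did not use directly, which are those between the parents and between hybrids of the same ploidy level. The same-ploidy contrasts share their arrays with the contrast between the ploidy levels.

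Thaumatin-like proteins are secreted pathogenesis-related proteins that plants accumulate after infection and under osmotic stress, and several of them act against fungi. Plant peroxidases of the secreted type are heme enzymes that use hydrogen peroxide to oxidize phenolics, and they take part in cell wall cross-linking and lignification. Disease resistance response proteins were described in pea, where members of the family are dirigent-type proteins that steer the coupling of phenolic radicals. In leaves, genes of these families are typically low or moderate without challenge and respond to pathogens, wounding and other stresses.

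Gene transcription was measured in young, fully expanded leaves at the vegetative stage. The parents were PG-F9, a genotype of M. sativa subsp. falcata that forms 2n eggs and was the female parent, and 12P, a genotype selected for 2n pollen from a cross of subsp. coerulea with subsp. falcata. Both are diploid. Their cross gave full-sib progeny, of which S8-2x, S16-2x and S24-2x are diploid and S29-4x, S48-4x and S60-4x tetraploid, so that each hybrid is a single genotype, multiplied by cuttings and reared in a screen house without any further treatment. There were 3 biological replicates for each of 8 genotypes. Leaves from 2 clones were pooled for a replicate, and its RNA went on 1 of the 24 arrays, whose probes derive from sequences of M. truncatula. Each array was normalized to the same distribution of intensities, so the values give the transcript relative to the other transcripts of the sample, and in such bulked leaves fewer cells of a type and less RNA per cell cannot be told apart. The deposited values are normalized intensities on the linear scale, with 1 value per gene and array, and were transformed to log2.

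The 24 arrays had median intensities of 499 to 528. On each array the highest of 11 negative controls was taken as background, and 66.0% to 79.1% of the genes exceeded it. The values of TC175139 and TC176166 lay above that control in all 24 arrays. Those of TC183565 did so in 20 arrays, and the exceptions were PG-F9 replicates 1 and 3, S29-4x replicate 1 and S48-4x replicate 2, where its level is at background. Of the 5 leaf markers, the photosystem I subunit PsaD (TC174046) and 2 chlorophyll a/b binding proteins (TC177786 and TC180095) were above the control in all arrays, with intensities between 1163 and 20378. The Rubisco small subunit TC198142 and the chlorophyll a/b binding protein TC183902 were above it in 15 arrays each.

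The thaumatin-like gene TC175139 was highest in the 2x hybrids, intermediate in the parents and lowest in S48-4x. In the parents, its intensity in replicates 1, 2 and 3 was 788, 1043 and 536 in PG-F9 and 1867, 712 and 1218 in 12P. In the 2x hybrids, it was 647, 2158 and 2755 in S8-2x, 3426, 1714 and 4466 in S16-2x, and 1507, 3795 and 753 in S24-2x. Of these arrays, 2 of S8-2x, 2 of S16-2x and 1 of S24-2x exceeded every parental array, and the others lay within the parental range. In the 4x hybrids, the intensity was 129, 891 and 1179 in S29-4x, 91.4, 337 and 267 in S48-4x, and 1279, 1003 and 671 in S60-4x. All 3 arrays of S48-4x and 1 of S29-4x lay below every parental array, while those of S60-4x were within the parental range.

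On the log2 scale, the mean of TC175139 was 11.54 ± 0.71 (SD, n = 3) in S16-2x, 10.67 ± 1.17 in S24-2x and 10.61 ± 1.12 in S8-2x. It was 10.20 ± 0.70 in 12P, 9.89 ± 0.47 in S60-4x and 9.57 ± 0.48 in PG-F9. The lowest means were those of S29-4x (9.004 ± 1.74) and S48-4x (7.66 ± 1.004). In this order the arrays of each genotype overlapped with those of the next, so that no pair of neighbours was separated beyond its spread. Compared with the parental mean, S16-2x was higher by 1.65, S24-2x by 0.78 and S8-2x by 0.73, and S48-4x fell by 2.23 and S29-4x by 0.88. The mean of S60-4x was 0.01 from the parental mean.

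The peroxidase gene TC176166 was highest in S8-2x and lowest in S29-4x, with a clear difference between the parents. In the parents, its intensity in replicates 1, 2 and 3 was 9097, 8150.0 and 8478 in PG-F9 and 5695, 5946 and 5468 in 12P. The 3 arrays of PG-F9 were all above those of 12P. In the 2x hybrids, it was 8663, 12533 and 14387 in S8-2x, 6879, 8192 and 9306 in S16-2x, and 8019, 7501 and 6590.3 in S24-2x. In the 4x hybrids, it was 2105, 2724 and 2786 in S29-4x, 3984, 4515 and 5476 in S48-4x, and 6861, 5557 and 6519 in S60-4x. The arrays of S29-4x were far below all others, those of S48-4x lay below every parental array in 2 cases and within the 12P range in the other, and those of S60-4x lay between the parents in 2 cases and within the 12P range in the other.

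The mean log2 intensity of TC176166 was 13.50 ± 0.38 (SD, n = 3) in S8-2x, 13.06 ± 0.08 in PG-F9, 12.98 ± 0.22 in S16-2x and 12.84 ± 0.14 in S24-2x. It was 12.62 ± 0.16 in S60-4x, 12.48 ± 0.06 in 12P, 12.17 ± 0.23 in S48-4x and 11.30 ± 0.22 in S29-4x. The arrays of neighbouring genotypes overlapped throughout this order, with the exception of S48-4x and S29-4x, whose arrays did not overlap. Compared with the parental mean, S8-2x was higher by 0.73, while S29-4x fell by 1.47 and S48-4x by 0.60. The means of S16-2x, S24-2x and S60-4x lay between those of the parents.

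The disease resistance response gene TC183565 was the weakest signal relative to background, and was highest in S16-2x and S24-2x. In the parents, its intensity in replicates 1, 2 and 3 was 83.7, 393 and 101 in PG-F9 and 131, 80.5 and 165 in 12P. In the 2x hybrids, it was 159, 209 and 219.8 in S8-2x, 559, 224 and 627 in S16-2x, and 595, 517 and 155 in S24-2x. In S16-2x and in S24-2x, 2 arrays were above every parental array and the third was not. In the 4x hybrids, it was 43.6, 344 and 113 in S29-4x, 84.9, 64.3 and 107 in S48-4x, and 283, 172 and 184 in S60-4x. The arrays of S48-4x were near background, and those of S29-4x spanned the whole range of the 4x group.

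The mean log2 intensity of TC183565 was 8.74 ± 0.81 (SD, n = 3) in S16-2x, 8.502 ± 1.07 in S24-2x, 7.70 ± 0.39 in S60-4x and 7.60 ± 0.25 in S8-2x. It was 7.22 ± 1.22 in PG-F9, 6.91 ± 0.53 in 12P, 6.90 ± 1.49 in S29-4x and 6.39 ± 0.37 in S48-4x. Again the arrays overlapped between all neighbours in this order. S60-4x was the only 4x hybrid with a mean above both parents in any of the 3 genes.

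**Figure D1:**
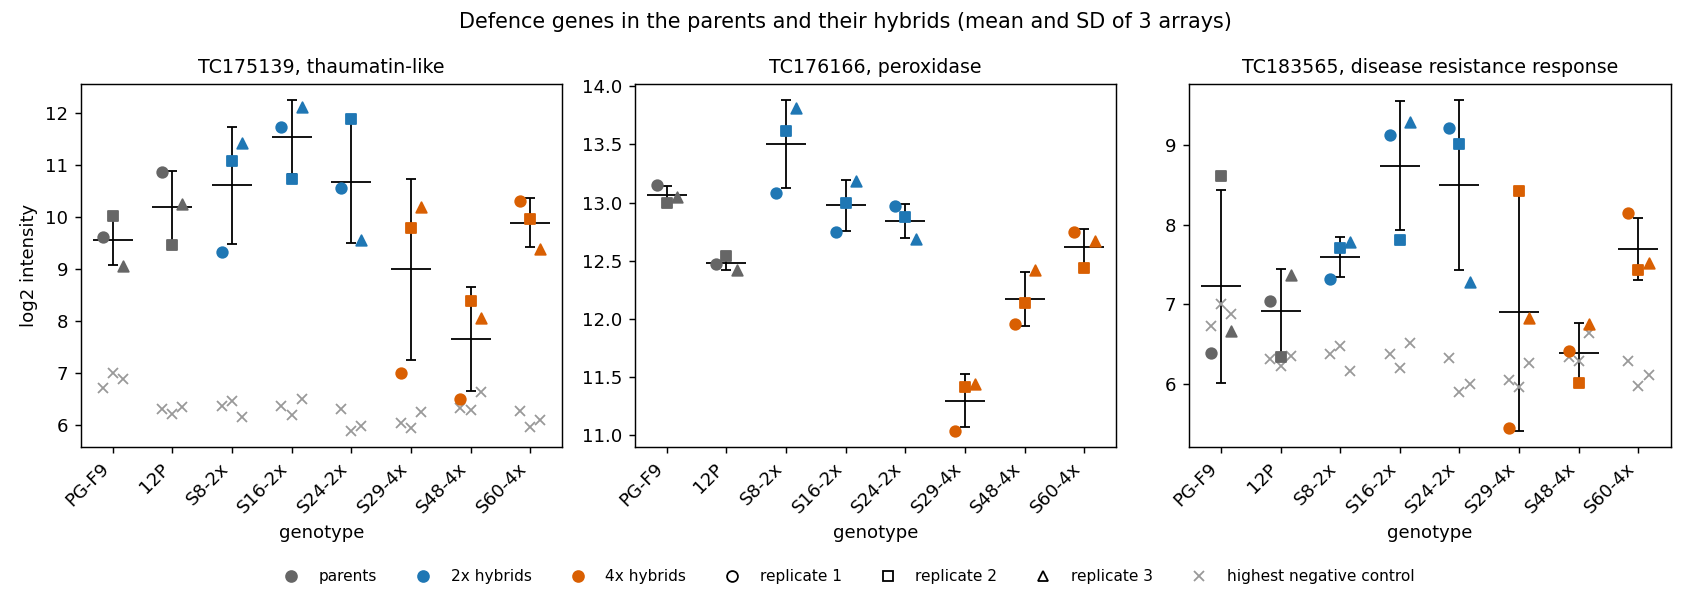
Log2 intensity (y axis, a separate scale for each gene) of TC175139, TC176166 and TC183565 in the 8 genotypes (x axis), with 1 point per array shaped by replicate number, the mean and SD of 3 arrays in black, and the highest negative control of each array as a grey cross where it falls within the axis. The replicates of TC176166 lie close together, with SDs between 0.06 and 0.38, whereas those of TC175139 in S29-4x span from 7.01 to 10.20.

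In the contrast that the choice of the genes used, 2x minus 4x hybrids, the log2 difference was 2.09 for TC175139, 1.08 for TC176166 and 1.29 for TC183565. With limma, all 3 genes passed the threshold of the study (absolute log2 difference over 1 and adjusted p under 0.05), which 1.47% of all genes did. This count follows from the choice and is not a result about the genes. TC176166 was closest to the threshold on the difference. Of the 9 arrays of the 2x hybrids, 8 were above every 4x array for TC176166, 7 for TC175139 and 4 for TC183565. The size of the difference varied with the genotypes included. Without S29-4x, the difference of TC176166 was 0.71, and without S60-4x it was 1.37. Without S48-4x, the differences of TC175139 and TC183565 were 1.49 and 0.98, and without S60-4x they were 2.61 and 1.64.

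Relative to the parents, the mean of the 2x hybrids was higher and that of the 4x hybrids lower for all 3 genes, but the sizes differed. The difference of the parents minus the 2x hybrids was -1.05 for TC175139, -1.21 for TC183565 and -0.34 for TC176166, and that of the parents minus the 4x hybrids was 1.03, 0.07 and 0.74, respectively. None of the 3 genes was called in either comparison, and 0.183% and 1.36% of all genes were. For the 4x hybrids this follows from the choice and is not a result about the genes. The study's list left out genes that differed between the parents and the 4x hybrids. By the size of the differences, the parents were about midway between the hybrid groups for TC175139. They were at the level of the 4x hybrids for TC183565 and closer to the 2x hybrids for TC176166. All 3 means of the 2x hybrids were above both parents for TC175139 and TC183565, as was 1 for TC176166. Of the 4x hybrids, S29-4x and S48-4x had means below both parents in all 3 genes. For TC183565, however, the mean of S29-4x was only 0.01 under that of 12P, with overlapping arrays and S29-4x replicate 1 at background. For TC176166 the group differences moved with the parent included, since parents minus 2x hybrids was -0.63 without PG-F9 and -0.04 without 12P, and parents minus 4x hybrids was 0.45 and 1.03. Without S29-4x the latter was 0.37. These comparisons share the parental arrays.

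The parents, which the choice did not compare, differed in 1 of the 3 genes. The peroxidase TC176166 was 1.503-fold higher in PG-F9 than in 12P, with a log2 difference of 0.59 (SE 0.123, 95% interval 0.30 to 0.88, adjusted p = 0.0147 from limma) and no overlap of the arrays. This difference remained under 1 on the log2 scale and the gene was therefore not called with the threshold of the study, which 11.1% of all genes passed. At an adjusted p under 0.05 without a threshold on the difference, 21.9% of the genes differed. Under the same rule the share was 4.14% for S8-2x against S16-2x, 7.17% for S8-2x against S24-2x and 1.03% for S16-2x against S24-2x. It was 4.88% for S29-4x against S48-4x, 3.43% for S29-4x against S60-4x and 6.01% for S48-4x against S60-4x. TC175139 had a log2 difference of -0.63 (SE 0.382, 95% interval -1.53 to 0.27, adjusted p = 0.298 from limma). For TC183565 the difference was 0.31 (SE 0.583, 95% interval -1.06 to 1.68, adjusted p = 0.751 from limma), and it had the opposite sign without PG-F9 replicate 2 (-0.38), the only PG-F9 array above background. The intervals of TC175139 and TC183565 both reach beyond a difference of 1 in size.

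Among the 2x hybrids, none of the 9 differences (3 genes in 3 pairs) was called with limma, whereas 2.51% of all genes were called between S8-2x and S16-2x, 3.42% between S8-2x and S24-2x and 0.864% between S16-2x and S24-2x. In a joint fit of all 24 arrays, 4.06% of all genes were called between S16-2x and S24-2x. In the fits of each pair alone, 3 of the 9 differences had an unadjusted p under 0.05, and the lowest adjusted p was 0.107. This was the peroxidase TC176166 in S8-2x against S24-2x, with a log2 difference of 0.66 (SE 0.205, 95% interval 0.17 to 1.15) and no overlap of the arrays. Its adjusted p depended on the fit, from 0.0143 in the joint fit to 0.187 with the replicate number as a block (both limma). The difference was under 1 in each of these settings. TC183565 was lower in S8-2x than in S16-2x by a log2 difference of -1.14 (limma adjusted p = 0.149, SE 0.379), again without overlap. This difference was called when S16-2x replicate 2 was left out (-1.61, adjusted p = 0.0196 from limma). The difference of TC183565 between S8-2x and S24-2x was called without S24-2x replicate 3 (-1.52, adjusted p = 0.0183 from limma). The arrays of TC175139 overlapped in all 3 pairs.

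Each of the 3 genes was called between S60-4x and 1 of the other 4x hybrids. These calls are not independent of the choice, because the low 4x genotypes also entered the 2x minus 4x difference. Without S29-4x that difference was 0.71 for TC176166, and without S48-4x it was 0.98 for TC183565, both under the threshold of 1. For TC175139 it was 1.49 without S48-4x. TC176166 was 2.497-fold lower in S29-4x than in S60-4x, with a log2 difference of -1.32 (limma adjusted p = 0.00868, SE 0.151) in a comparison in which 1.54% of all genes were called. S29-4x was also lower than S48-4x, by a log2 difference of -0.88 (limma adjusted p = 0.0422, SE 0.178), under the threshold on the difference that 3.16% of all genes passed. The arrays of these genotypes did not overlap in either case. TC175139 was 4.71-fold lower in S48-4x than in S60-4x (log2 difference -2.24, limma adjusted p = 0.0494, SE 0.498), and TC183565 was also lower (log2 difference -1.31, limma adjusted p = 0.0316, SE 0.256), where 3.24% of all genes were called. TC176166 did not pass the test between S48-4x and S60-4x (log2 difference -0.45, adjusted p = 0.178 from limma). The arrays of this pair did not overlap for any of the 3 genes. The share of all genes without overlap was not determined, so this is not a result about the genes. Between S29-4x and S48-4x, the arrays of TC175139 and TC183565 overlapped (log2 differences 1.35 and 0.51, adjusted p = 0.465 and 0.737 from limma), and the lowest single value of TC183565 was that of S29-4x replicate 1.

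The calls between S48-4x and S60-4x rest on few arrays. That of TC175139 was lost without S48-4x replicate 1 (adjusted p = 0.0510), S48-4x replicate 3 (0.0778), S60-4x replicate 1 (0.170), S60-4x replicate 2 (0.153) or S60-4x replicate 3 (0.0998), and that of TC183565 without S48-4x replicate 1 (0.109) or any S60-4x array (0.0880, 0.0666 and 0.0909 for replicates 1, 2 and 3), all from limma. In S48-4x the intensities of TC183565 were near the highest negative control (64.3 against 78.1, 84.9 against 80.6 and 107 against 99.3), so that the size of its difference is uncertain, and with 50 added to the intensities it was -0.94 and no longer called. TC175139 was near that control in S48-4x replicate 1 (91.4 against 80.6). With 50 added, the difference of TC175139 was -1.95 and still called. Both calls were also lost with a floor on low intensities. They were lost as well in a joint fit of all 24 arrays (adjusted p = 0.0884 and 0.306 from limma), the fit that gave the study's counts of called genes. The peroxidase call between S29-4x and S60-4x was kept in both settings. Among single arrays left out it was lost only without S60-4x replicate 3, by a narrow margin (log2 difference -1.29, adjusted p = 0.0501 from limma). For S29-4x against S48-4x, the adjusted p of TC176166 was between 0.0759 and 0.113 with any of the 6 arrays left out.

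**Figure D2:**
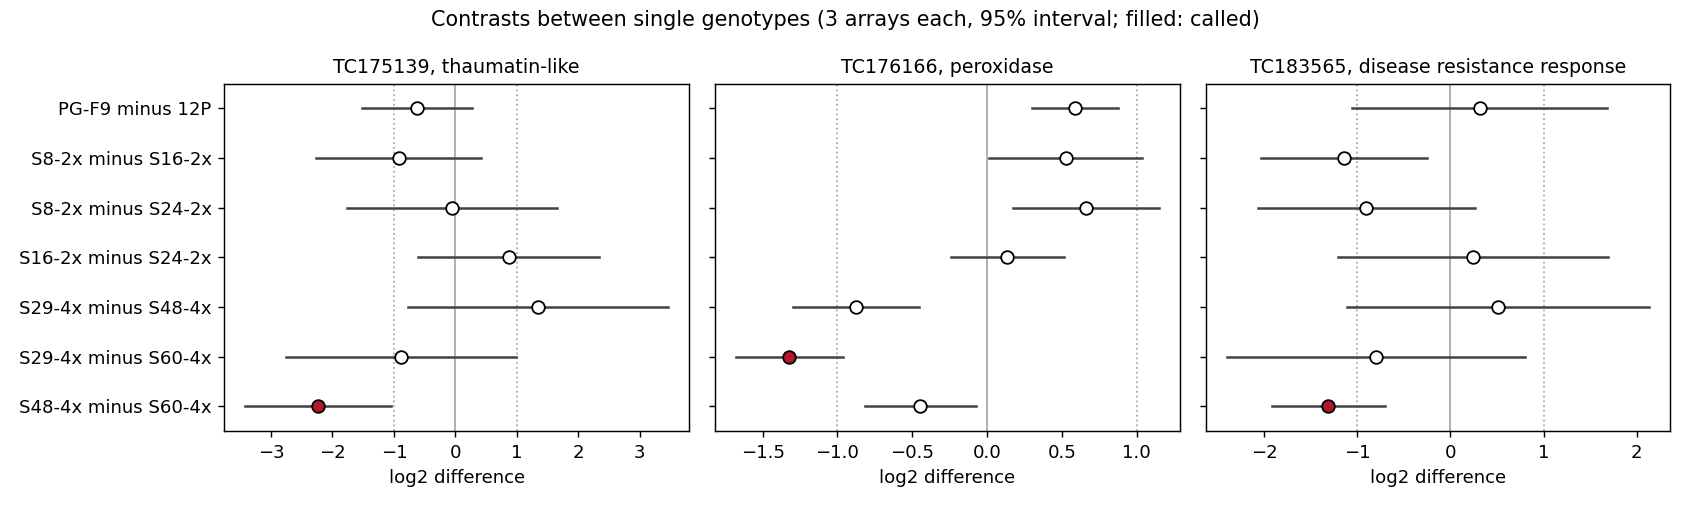
Log2 difference (x axis) between pairs of single genotypes (y axis) for each of the 3 genes, with 95% intervals from limma (3 arrays per genotype), filled points for called differences and dotted lines at differences of -1 and 1. Of the 21 differences, 3 are called, all among the 4x hybrids, and the intervals of TC176166 are the narrowest.

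The 3 genes differed widely in the spread between the replicates of a genotype. The pooled SD within genotypes was 1.01 for TC175139 and 0.88 for TC183565, larger than for 99.9% and 99.8% of all genes, whose median was 0.25. For TC176166 it was 0.21, larger than for 37.7% of the genes. The highest replicate of TC175139 was between 1.91 times (S60-4x) and 9.16 times (S29-4x) as high as the lowest, and that of TC183565 between 1.38 times (S8-2x) and 7.87 times (S29-4x), compared with 1.09 times (12P) to 1.66 times (S8-2x) for TC176166. Differences between genotypes made up 93.0% of the variance of TC176166 over the 24 arrays, against a median of 60.02% over all genes. For TC175139 the share was 64.5% and for TC183565 53.0%. The share for each gene includes the difference between the 2x and the 4x hybrids that was used to choose it.

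The deviations of single arrays from the mean of their genotype, which do not contain the group differences, went together most closely for the pairs with TC175139. In S8-2x (replicate 1), S24-2x (replicate 3) and S29-4x (replicate 1), 1 replicate was the lowest for all 3 genes. In S8-2x (replicate 3), S16-2x (replicate 3) and S60-4x (replicate 1), 1 replicate was the highest for all 3. The deviations lay on the same side of the genotype mean in 18 of 24 arrays for TC175139 and TC183565. They did so in 14 of 24 arrays for TC175139 and TC176166, and in 14 for TC176166 and TC183565. Over the 24 deviations, Pearson's r was 0.65 between TC175139 and TC183565 (Spearman's rho 0.60), 0.63 between TC175139 and TC176166 (rho 0.56) and 0.34 between TC176166 and TC183565 (rho 0.38). Without the 2 arrays farthest from the median of the first gene, r was 0.56, 0.47 and 0.21. Against all other genes, the 95th percentile of r with TC175139 was 0.48, and TC183565 and TC176166 ranked at positions 420 and 502 of 41526. The r of 0.34 between TC176166 and TC183565 lay under the 95th percentiles of both genes (0.44 and 0.54), at position 4334 for TC176166 and 7276 for TC183565.

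For the deviations of TC175139 and TC183565, r was 0.62 in the parents (6 arrays), 0.75 in the 2x hybrids (9 arrays) and 0.63 in the 4x hybrids (9 arrays). They lay on the same side of the genotype mean in 5 of 6, 8 of 9 and 5 of 9 arrays. Without S29-4x replicate 1, r of this pair over all genotypes was 0.50. For TC175139 and TC176166, r was 0.67 in the 2x and 0.75 in the 4x hybrids, whereas in the parents, where TC176166 hardly varied, it was -0.40. For TC176166 and TC183565, r was -0.85 over parental arrays, 0.39 over 2x arrays and 0.64 over 4x arrays. Over the 8 genotype means, which the choice of the genes shaped, r was 0.86 between TC175139 and TC183565 (rho 0.88), 0.61 between TC175139 and TC176166 (rho 0.60) and 0.53 between TC176166 and TC183565 (rho 0.62). The points of each correlation share the same arrays and their normalization, and the correlations are given as a description.

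**Figure D3:**
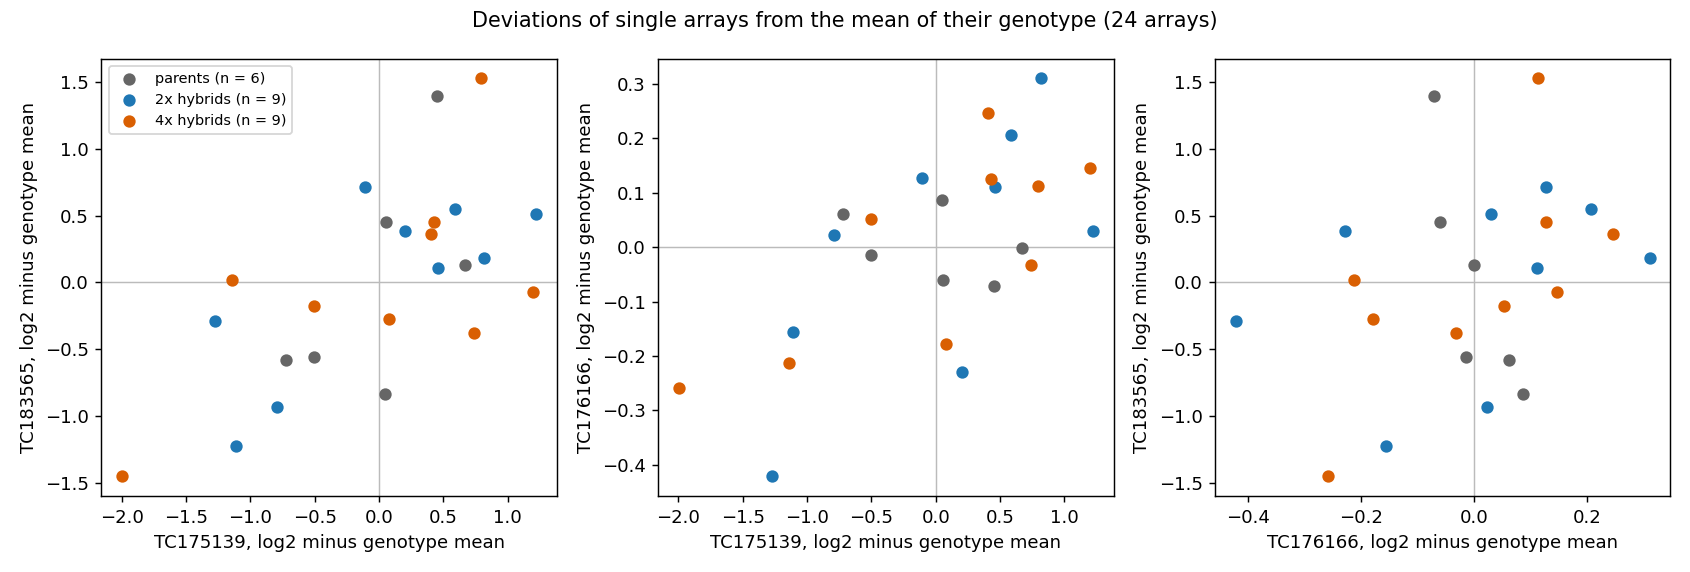
Deviation of each array from the mean of its genotype in log2 units for pairs of the 3 genes (x and y axes), with 1 point for each of the 24 arrays coloured by group. Arrays low in TC175139 also tend to be low in TC183565 (r = 0.65), and the deviations of TC176166 cover a narrower range.

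The shared deviations were set against properties of the arrays. The r between the deviations of the genes and those of the percentage of genes exceeding background was -0.11 for TC175139, -0.23 for TC176166 and -0.39 for TC183565, and for the median log2 intensity of the array it was -0.22, 0.26 and 0.03. The mean of the 5 leaf markers moved in the opposite direction to TC175139 (r = -0.61) and TC183565 (r = -0.58), but hardly with TC176166 (r = -0.09). For the single markers, r with TC175139 was between -0.61 (TC180095) and -0.38 (TC198142). Of the 5 markers, 2 were not above background in 9 arrays each. The part of leaf composition or of the state of the plants in these deviations was not tested.

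Of the relatives of the 3 genes that the study annotated, TC190307, a disease resistance-responsive family protein, had a pattern close to that of TC175139 and TC183565. Its intensity was 1984, 2121 and 1127 in PG-F9, 489.6, 348 and 562 in 12P, 751, 1574 and 2095 in S8-2x, 1572, 989.8 and 2766 in S16-2x, and 1307, 1581 and 599 in S24-2x. In the 4x hybrids it was 261, 1437 and 576 in S29-4x, 231, 249 and 379 in S48-4x, and 754, 785 and 595 in S60-4x. The lowest replicates of S8-2x, S24-2x and S29-4x were thus the same ones as in the other genes. The r of its deviations within genotypes was 0.81 with TC175139 (rho 0.74) and 0.82 with TC183565 (rho 0.81), and it ranked at positions 23 and 24 among 41526 genes. Without the 2 farthest arrays, r was 0.72 and 0.71. TC190307 differed from both in the parents, in that it was higher in PG-F9 than in 12P by a log2 difference of 1.88 (limma adjusted p = 0.00440, SE 0.289). It was also lower in S48-4x than in S60-4x, with a log2 difference of -1.34 (limma adjusted p = 0.0165, SE 0.217).

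TC187064, annotated as the precursor of a second alfalfa peroxidase (Peroxidase1C), followed TC176166 across the genotypes. Over the 24 arrays, r was 0.90 (rho 0.90, and 0.82 without the 2 farthest arrays), the second highest among 41526 genes. Within genotypes r was 0.57 (rho 0.43, and 0.35 without the 2 farthest arrays), at position 642. With TC175139, r of TC187064 within genotypes was 0.74, at position 111. Its intensity was 12942, 12954 and 14630 in PG-F9 and 4350, 3585 and 3415 in 12P, a log2 difference of 1.84 (limma adjusted p = 0.000271, SE 0.146) in the direction of TC176166, and larger than the 0.59 of that gene. It was also lower in S29-4x (1520.2, 1989 and 2834) than in S60-4x (8589, 6819 and 6785), with a log2 difference of -1.85 (limma adjusted p = 0.0122, SE 0.233). Whether the probes of one peroxidase gene also bind transcripts of the other was not tested. Both relatives come from the list of genes that the study found to differ between groups of these arrays.

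**Figure D4:**
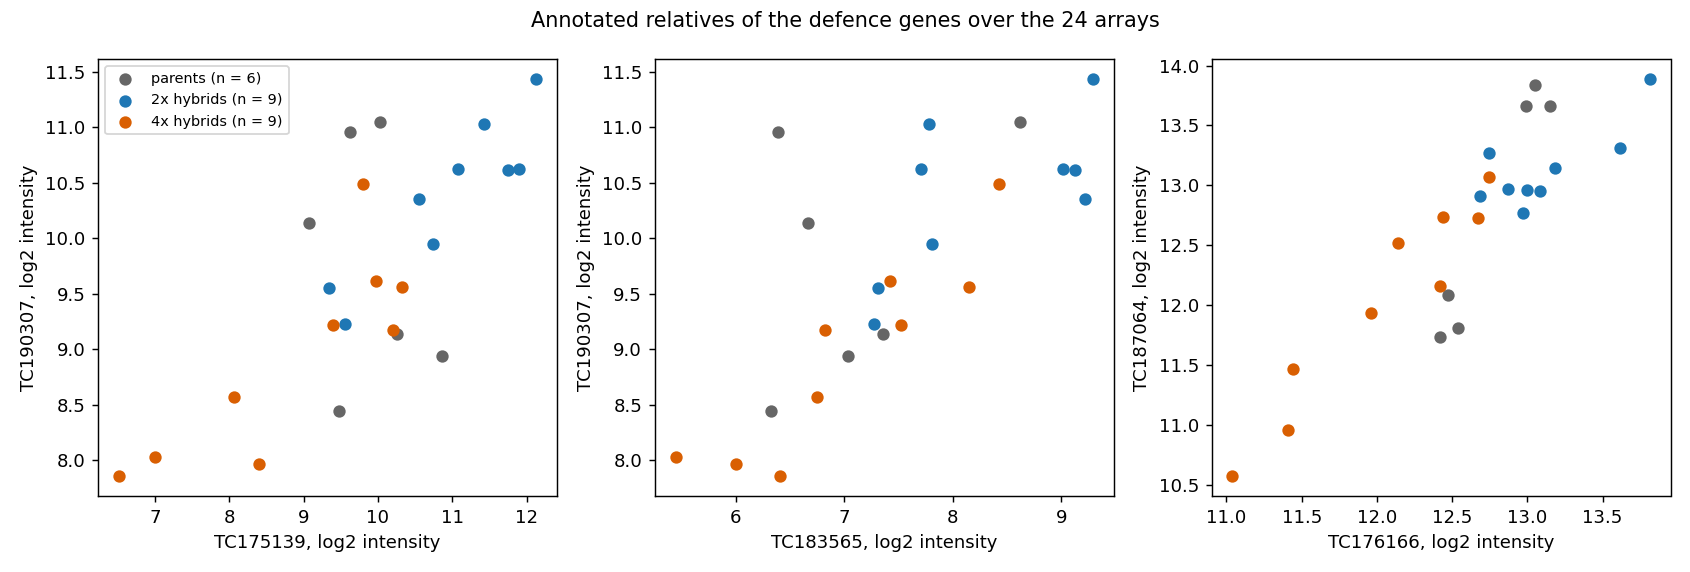
Log2 intensity over the 24 arrays (1 point each, coloured by group) of TC190307 against TC175139 and TC183565, and of the peroxidase TC187064 against the peroxidase TC176166. The 3 highest and the 3 lowest parental points of the right panel are PG-F9 and 12P, which differ in both peroxidases, with log2 differences of 1.84 for TC187064 and 0.59 for TC176166.

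The genes with the highest r over the 24 arrays were TC173388 (0.91), TC189158 (0.89) and TC186320 (0.88) for TC175139, and none of them is annotated in the tables used here. For TC176166 they were TC193432 (0.94), TC187064 (0.90) and TC175554 (0.90). For TC183565 they were TC175317 (0.89), TC192227 (0.89) and TC188818 (0.88), of which TC188818 is similar to a cytochrome P450 of licorice. The r within genotypes was 0.85 for TC193432 and 0.06 for TC175554, so that the latter resembled TC176166 only in the genotype means. For TC175317 it was 0.90. An r over 0.8 over the 24 arrays was found for 42 genes with TC175139, 62 with TC176166 and 17 with TC183565.

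The study placed 7 further genes with the defence response term in its list of enriched genes. These are 4 lipoxygenases (TC201583, TC173777, TC172508 and TC178639), which oxidize fatty acids in the pathway to jasmonates, the protein kinase TC179350, the GDSL esterase/lipase TC179158 and the heat shock protein TC182218. The study listed the 4 lipoxygenases and TC182218 as higher in 4x than in 2x hybrids, opposite to the 3 genes described here. It listed TC179350 and TC179158 as lower in 4x hybrids. Between PG-F9 and 12P, where 11.1% of all genes were called, none of the 7 was, with a median log2 difference of 0.18 and a range of -0.24 to 1.46. Among the same-ploidy pairs, in which 0.864% to 3.42% of all genes were called, 2 of 42 differences were, both of TC182218, which was higher in S48-4x than in S29-4x (log2 difference -2.15 for S29-4x minus S48-4x, adjusted p = 0.0254 from limma) and S60-4x (log2 difference 1.81, adjusted p = 0.0373 from limma). S48-4x, the hybrid with the lowest TC175139, thus had the highest TC182218 of the 4x hybrids. Within genotypes, r with TC175139 was 0.57 for TC179158 and 0.42 for TC179350, between 0.09 and 0.43 for the lipoxygenases and -0.28 for TC182218.

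Other defence genes annotated by the study were grouped by role. Between PG-F9 and 12P, where 11.1% of all genes were called and the median difference of all genes was -0.01, 4 of 9 genes of the isoflavonoid phytoalexin branch were called, with 3 favouring PG-F9 and 1 favouring 12P and a median of 0.62. The largest differences were those of a chalcone reductase (TC177153, 1.73, adjusted p = 0.00211 from limma) and chalcone synthase 8 (TC200217, 1.71, adjusted p = 0.00874 from limma), enzymes at the start of flavonoid and isoflavonoid synthesis. Of 6 defence regulators, 3 were higher in PG-F9 and 1 in 12P (median 0.51), with the largest differences in TC190654, similar to WRKY27 (1.77, adjusted p = 0.000985 from limma), and the ERF-type factor TC184632 (-1.58, adjusted p = 0.00138 from limma). Of 4 protease inhibitors, only the Kunitz inhibitor TC183194 was called, higher in 12P (-1.19, adjusted p = 0.0313 from limma), and the median was -0.02. Of 9 disease resistance proteins, the receptor class of plant immunity, 1 was higher in PG-F9 (TC188775, 3.91, adjusted p = 8.5e-05 from limma) and 1 in 12P (TC195915, -1.60, adjusted p = 0.00712 from limma), with a median of 0.38. These groups were taken from genes that the study found to differ on these arrays, and their shares cannot be read against the background.

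In the 6 pairs of hybrids of the same ploidy level, in which 0.864% to 3.42% of all genes were called, the 3 genes gave 3 calls in 18 differences. The disease resistance proteins gave 11 calls in 54, the regulators 5 in 36, the isoflavonoid genes 3 in 54 and the protease inhibitors 2 in 24. Between S48-4x and S60-4x, the protease inhibitors TC183194 and TC176182 (log2 differences 2.11 and 1.25, adjusted p = 0.00389 and 0.0237 from limma) and 3 disease resistance proteins were higher in S48-4x, opposite to TC175139 and TC183565. WRKY53 (TC179729) was lower in S48-4x (-1.39, adjusted p = 0.00287 from limma) and in S29-4x (-1.36, adjusted p = 0.0176 from limma) than in S60-4x, and the ERF-type factor TC184632 was higher in S48-4x than in S60-4x (1.05, adjusted p = 0.0417 from limma).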

How the data were processed

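The authors quantile normalized the NimbleGen arrays, summarized probes to genes by RMA and deposited the result as linear intensity values. All 41538 entries of the 24 arrays were read, and the 11 negative controls were left out of the tests. The intensities were transformed to log2. Arrays were assigned to genotypes by their labels. Genotypes were compared without pairing by moderated tests (limma 3.58.1, R 4.3.3, no trend) fitted to the arrays compared alone. A joint fit of all 24 arrays with 8 genotype means gave the numbers of called genes that the study reported for these contrasts. Between the parents, for example, it called 4839 genes, against 4597 in the fits used here. The gap was wider between S16-2x and S24-2x, with 1685 genes (4.06%) in the joint fit against 359 (0.864%) here. Benjamini-Hochberg adjustment covered the full set of 41527 genes. Calls needed an adjusted p below 0.05 together with a log2 difference beyond 1 in size. The fits were tested on simulated data. Correlations and spreads were computed with Python 3.11.15, numpy 2.4.6 and scipy 1.17.1. Annotations were taken from the tables of the study. The genes named are the 3 genes, the lists of annotated defence genes, and the 3 genes with the highest correlation to each over the 24 arrays. Within the 4 groups of other defence genes, up to 2 called genes with the largest difference in the contrast described are named. The genes and lists were chosen with earlier results of these data known. The labels give no hybridization batch, and the precision is limited by the 3 arrays per genotype. The qRT-PCR data of the study were not analysed here.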

Additional observations from a re-analysis of the deposited data

How the results depend on the processing

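The number of called differences among the 21 (3 genes in 7 contrasts) was 3. It was 1 with a floor at the 5th percentile, 1 in a fit of all 24 arrays with 8 genotype means, 1 with the replicate number as a block, and 5 when the size of the difference was ignored, the last by the addition of TC176166 between the parents and between S29-4x and S48-4x. The call that remained in the first 3 of these settings was that of TC176166 between S29-4x and S60-4x. Omitting single arrays gave counts between 0 (without S60-4x replicate 3) and 4. With a second quantile normalization, with each array centred on its median and with 50 added to the intensities, 2 were called. Replicate numbers did not pair arrays across genotypes: 7 of 24 arrays correlated best with arrays of their own number. The log2 difference of TC175139 between S48-4x and S60-4x was between -2.24 and -1.95 over the settings that kept all arrays, with adjusted p between 0.0224 and 0.122 from limma. For TC183565 it was between -1.32 and -0.94, with adjusted p between 0.0160 and 0.306. The peroxidase TC176166 kept its direction in all alternatives and contrasts, and its parental difference was between 0.54 and 0.62 with 1 array left out and had an adjusted p under 0.05 in each alternative run. Directions changed with 1 array left out for TC183565 between PG-F9 and 12P (-0.38 to 0.73), S16-2x and S24-2x (-0.37 to 0.71) and S29-4x and S48-4x (-0.25 to 1.24), and for TC175139 between S8-2x and S24-2x (-0.61 to 0.58) and S29-4x and S60-4x (-1.49 to 0.11), none of them called. Correlations within genotypes were between 0.50 and 0.71 for TC175139 and TC183565 with 1 array left out. The cause of these changes was not tested. Values of TC183565 at background limit the size of its differences.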
